A study of Mus musculus with 12 samples.

Results

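Genes for apolipoproteins, for transthyretin and for the proteins that move cholesterol and phospholipid out of cells were examined in the retinal pigment epithelium (RPE) of mice that lack functional MFRP. The genes were chosen by symbol, with no use of their values in the rule: the apolipoproteins Apoe, Apoc1, Apoc4, Apod, Apob and Clu, the carrier Ttr, the transporters Abca1 and Abcg1, and the lipid transfer protein Pltp. Of these 10 genes, 9 were matched among the 28591 genes of the series, and all 9 passed the filter on low values that left 17768 genes for testing, Apoc4 only through its level in rd6. Apob was not analysed here.

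The groups were 6 RPE samples of WT mice (C57BL/6J) and 6 of mice with the genotype Mfrp rd6/rd6 (rd6), each at 1 mo of age. The rd6 allele is a germline change in Mfrp, which encodes a membrane-type frizzled-related protein of the RPE, so all cells of the animal carry it. For each sample the RPE of both eyes was combined after the anterior segment and the retina had been taken out of the eyecup, and total RNA was sequenced. Because these are bulk samples, a change in the number of cells of one type cannot be told apart from a change in RNA per cell. Values are normalized counts, the reads counted on a gene divided by the size factor of its library.

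Lipoproteins are particles of lipid held in solution by apolipoproteins. Cells load them through ABCA1, which hands cholesterol and phospholipid to lipid-poor apolipoproteins, and through ABCG1, which adds cholesterol to particles already formed. PLTP then exchanges phospholipid among particles, and receptors of the LDL receptor family take them up, with apoE as a main ligand. The RPE takes in lipid from the shed tips of photoreceptor outer segments and from the choroidal blood, and it secretes lipoproteins. Transthyretin, which the RPE makes in large amounts, carries thyroxine and, through retinol-binding protein 4 (RBP4), retinol.

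In rd6 RPE, Apoe, Apoc1, Apoc4 and Clu rose and Apod, Abca1 and Pltp fell, while Ttr and Abcg1 passed no threshold. So 4 of the 9 tested genes were called higher (3 of 8 without Apoc4), against 11.4% of all genes tested, and 3 were called lower, against 11.6%. Under 2 other scalings, log2 CPM and edgeR with upper-quartile normalization, the same 4 (3 of 8 without Apoc4) and 3 genes were called. The shares of all genes were then 15.5% and 13.4% higher and 8.76% and 8.91% lower. A call means a Benjamini-Hochberg adjusted p below 0.05 in limma, fitted over all 17768 genes on log2(normalized count + 1). With a log2 fold change of at least 0.81 in size required as well, Apoc1 and Apoc4 were called higher (1 of 8 without Apoc4, against 4.69% of all genes) and Apod lower (2.12%). All rd6 libraries lay above all WT libraries for Apoc4 and Clu (1 of 8 without Apoc4, whose passing the filter fixed this, against 5.77% of all genes) and below them for Apod and Abca1 (5.67%). The median log2 fold change was 0.40 over the 9 genes, Apoc4 at 4.82 among them, and 0.00487 over all genes tested. Since Apoc4 passed the filter only through rd6, the median of the 9 is a description.

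**Figure D1:**
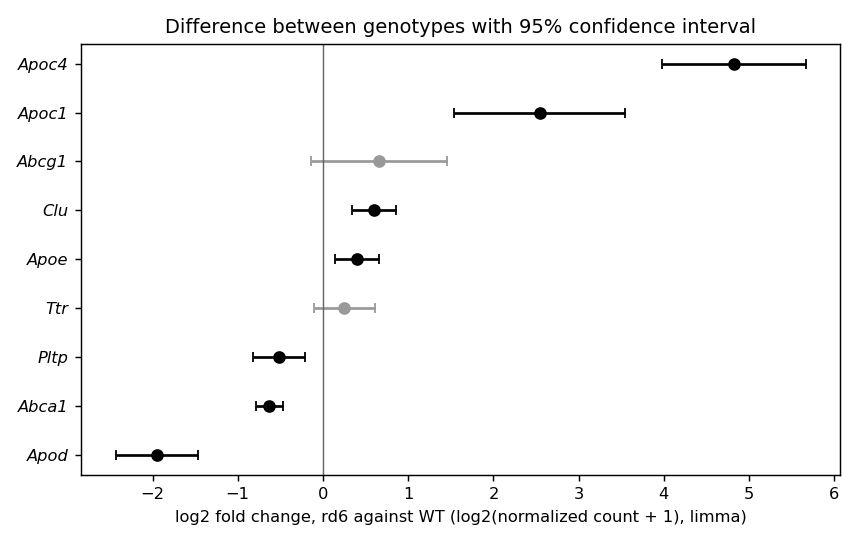
Log2 fold change of rd6 against WT for each gene (x axis, on the log2(normalized count + 1) scale) with its 95% confidence interval from limma, 6 libraries per genotype. Black points are called at an adjusted p below 0.05 and grey points are not. Apoc4 and Apoc1 lie farthest to the right at 4.82 and 2.54, Apod farthest to the left at -1.95, and the intervals of Ttr and Abcg1 include 0.

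The stretches before the start sites of 4 genes are shown because these genes changed in opposite directions, Apoe and Apoc4 upward and Abca1 and Apod downward. Each is the 250 bases upstream of a RefSeq start site (build GRCm38.p6, minus strand, printed 5′ to 3′ in the direction of the gene). Of the 10 genes, 6 have an entry in the RefSeq table used. Capitals mark matches on either strand to AGGTCA (the half-site bound by many nuclear receptors), GGGCGG (GC box), CACGTG (E-box) or TATAAA, which share no bases with one another in these 4 windows.
Apoe, chr7:19699189-19699438: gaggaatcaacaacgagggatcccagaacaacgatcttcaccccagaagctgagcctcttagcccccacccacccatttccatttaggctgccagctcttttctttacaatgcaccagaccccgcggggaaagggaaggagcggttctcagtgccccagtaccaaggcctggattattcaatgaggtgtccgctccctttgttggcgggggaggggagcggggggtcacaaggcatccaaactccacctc
Apoc4, chr7:19681461-19681710: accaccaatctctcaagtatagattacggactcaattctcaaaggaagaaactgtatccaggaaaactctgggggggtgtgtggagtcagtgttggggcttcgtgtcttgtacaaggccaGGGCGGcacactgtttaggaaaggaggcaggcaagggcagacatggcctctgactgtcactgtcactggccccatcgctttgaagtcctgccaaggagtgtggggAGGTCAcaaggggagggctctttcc
Abca1, chr4:53159896-53160145: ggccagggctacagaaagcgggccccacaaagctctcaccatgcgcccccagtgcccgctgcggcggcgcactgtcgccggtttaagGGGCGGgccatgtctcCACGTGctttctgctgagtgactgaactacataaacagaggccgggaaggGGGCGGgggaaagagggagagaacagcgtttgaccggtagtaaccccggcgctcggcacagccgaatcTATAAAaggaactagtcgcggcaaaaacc
Apod, chr16:31314809-31315058: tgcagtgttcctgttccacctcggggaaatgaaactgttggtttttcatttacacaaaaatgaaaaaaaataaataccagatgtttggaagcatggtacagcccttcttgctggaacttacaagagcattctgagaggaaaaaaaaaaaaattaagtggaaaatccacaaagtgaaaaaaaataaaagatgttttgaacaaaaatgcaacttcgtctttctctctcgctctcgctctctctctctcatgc
The Abca1 window holds 2 GC boxes, 1 E-box and 1 TATAAA, with 20 CpG dinucleotides and a GC content of 61.6%. The Apoc4 window holds 1 AGGTCA and 1 GC box, with 4 CpGs and 54% GC. No match lies in the windows of Apoe (57.2% GC, 8 CpGs) or Apod (36.4% GC, 4 CpGs), and the median over all windows was 52.4% GC. The table has 2 further start sites for Apoe, with windows not printed here, of which 1 holds 2 TATAAA matches that overlap on opposite strands (51.2% GC, 9 CpGs) and the other none (52% GC, 10 CpGs). Among 32851 windows of the same length, 14.0% hold AGGTCA, 32.7% GGGCGG, 6.02% CACGTG and 12.4% TATAAA. A match describes the letters only.

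Reads counted on genes summed to between 29218135 and 33152725 in the WT libraries and to between 28907262 and 32336530 in the rd6 libraries, and 3 reads, taken as the floor of detection, were worth 2.71 to 3.32 normalized counts. All 14 RPE markers had reads, and the most abundant was Rgr (mean 622536 in WT and 338693 in rd6). The summed RPE markers ran from 1074284 to 1514171 in WT and from 762945 to 1056502 in rd6. Of the 14, 6 were called lower and 1 higher, against 11.6% and 11.4% of all genes tested. The WT library with the lowest sum was WT 4. This library also stood apart in keratins of the ocular surface, Krt5, Krt12, Krt14 and Krt15, which summed to 167663 there and to at most 9814 in the other WT libraries. Among rd6 libraries the keratin sum was 81344 in rd6 5, 47145 in rd6 1, 13294 in rd6 2 and at most 2694 in the others. Results are therefore also given without WT 4 or without these 4 libraries, a choice made after seeing the data. Without the 4 libraries, with 5 WT and 3 rd6 libraries left, 4 of the 9 genes, Apoc4 among them, were called higher and 3 lower. The count over all genes was 1391 higher and 1540 lower against 2024 and 2062 with all libraries.

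Apoe encodes the main apolipoprotein of neural tissue (chr7:19696109-19699188, minus strand). In WT it measured 174548 at the lowest, 203282 at the median and 239125 at the highest, and in rd6 226923, 269726 and 317088. The genotypes overlapped by a single pair, with rd6 1 below WT 5 and the other 5 rd6 libraries above every WT library. The mean rose from 205537 ± 22103 (SD, n = 6) to 272214 ± 33817, a log2 fold change of 0.40 (SE 0.12, 95% interval 0.15 to 0.66) or 1.32-fold (limma, adjusted p = 0.0278). The call was lost when WT 1, WT 2, WT 3, rd6 4 or rd6 6 was left out, with adjusted p-values of 0.0538 to 0.0616 and log2 fold changes from 0.36 to 0.41. Apoe took 0.660% of the reads on genes in WT and 0.906% in rd6.

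Apoc1 and Apoc4 lie beside Apoe on the same strand, at chr7:19689481-19692660 and chr7:19678083-19681479, and encode small apolipoproteins found on triglyceride-rich particles. Apoc1 stood at 16.8, 26.4 and 171.9 normalized counts in WT (lowest, median, highest) and at 120, 205 and 308 in rd6. The highest WT value was that of WT 4, and the other 5 WT libraries, at 32.0 or less, lay under all rd6 libraries. The mean rose from 49.5 ± 60.2 to 212 ± 66.7, and the difference of mean log2 values, on which WT 4 weighs less, was 2.54 (SE 0.46) or 5.83-fold (limma, adjusted p = 0.0017). edgeR and DESeq2, which compare mean counts, gave a log2 fold change of 2.10 each. Without WT 4 the log2 fold change was 3.00, and without the 4 libraries with many keratin reads it was 2.91, both called.

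Apoc4 had no read in 5 WT libraries and 1 read in WT 5, while the rd6 libraries had 14 to 56 reads. Every rd6 library therefore lay above every WT library. Against a floor of 3 reads in each WT library (3.05 normalized counts on average), the rd6 mean of 34.8 ± 16.6 was at least 11.4-fold higher, and limma called it at an adjusted p of 2.6e-06. Having passed the filter through rd6 alone, Apoc4 had to differ, so its call is a description. The fitted log2 fold change, 4.82, depends on the pseudocount. The low WT level is a limit of detection at this depth. Apoc4 overlaps the gene Gm44805 on the same strand, so the assignment of its reads is uncertain.

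**Figure D2:**
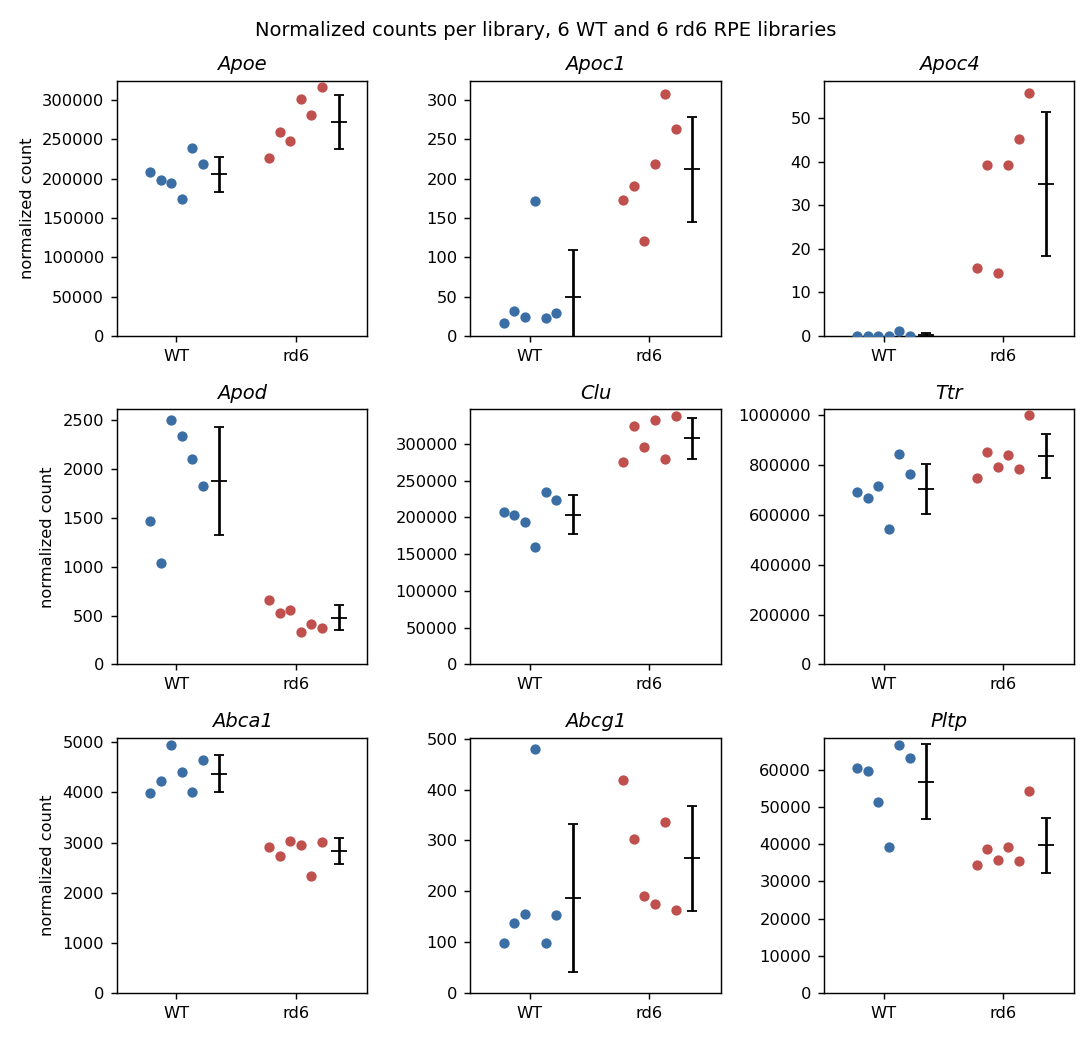
Normalized count (y axis, linear, from 0, a scale of its own in each panel) of the 9 genes in each of 6 WT (blue) and 6 rd6 (red) libraries, in the order of the replicate numbers, with the mean and SD as a black bar cut off at 0. All rd6 points lie above the WT points for Apoc4 and Clu and below them for Apod and Abca1, and WT 4 is the high WT point for Apoc1 (171.9) and Abcg1 (480).

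The level of Apoc1 relative to Apoe was compared within each library, which takes out changes that both genes share. The log2 ratio of the normalized counts, each plus 1, was -13.52 to -12.55 in 5 WT libraries and -9.98 in WT 4, and it ran from -11.00 to -9.83 in rd6. The rd6 mean was higher by 2.14 (exact permutation test over 924 splits, two-sided p = 0.013, adjusted over 2 ratios 0.013). The other 5 WT libraries lay under all rd6 libraries, while WT 4 lay inside the range of rd6.

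**Figure D3:**
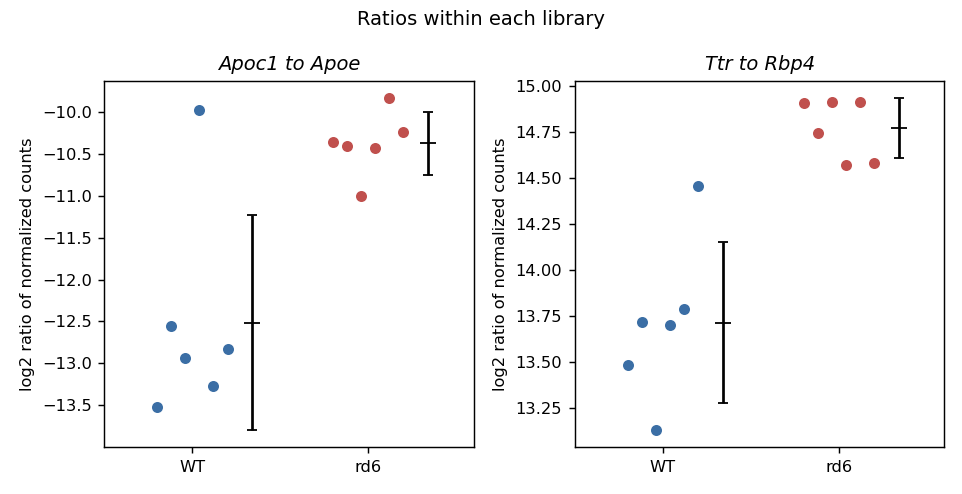
Log2 ratio of normalized counts within each library (y axis) for Apoc1 to Apoe (left) and Ttr to Rbp4 (right), in 6 WT (blue) and 6 rd6 (red) libraries, with the mean and SD in black. For Apoc1 to Apoe, WT 4 at -9.98 lies among the rd6 libraries, and for Ttr to Rbp4 all rd6 libraries lie above all WT libraries.

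Clu encodes clusterin, or apolipoprotein J, a secreted chaperone that also binds lipid (chr14:65968483-65981547, plus strand). It measured 159267, 205215 and 234918 in WT (lowest, median, highest) and 275886, 309525 and 337665 in rd6. The genotypes did not overlap. Clu rose from 203613 ± 26330 to 307480 ± 27524, a log2 fold change of 0.60 (SE 0.12, 95% interval 0.34 to 0.86) or 1.52-fold (limma, adjusted p = 0.00316), and the call held in each of the 12 omissions of a single library. Its share of the reads went from 0.653% to 1.02%.

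Apod encodes a lipocalin that binds arachidonic acid and other small lipids (chr16:31296192-31314808, minus strand). It is unrelated in structure to the other apolipoproteins among the genes chosen here. Its WT values were 1037, 1963 and 2498 (lowest, median, highest), and its rd6 values were 333, 470 and 664. No rd6 library reached the lowest WT library. Apod fell from 1877 ± 552 to 478 ± 126, 3.87-fold lower, with a log2 fold change of -1.95 (SE 0.22; limma, adjusted p = 4.9e-05). Its 3 most similar genes, by the measure given further on, were Sh2b3, Rflnb and Flt1.

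Ttr encodes transthyretin (chr18:20665280-20674321, plus strand) and took 2.26 ± 0.25% of the reads on genes in WT and 2.78 ± 0.21% in rd6. Its normalized counts were 543596, 702623 and 843724 in WT (lowest, median, highest) and 745664, 815642 and 998217 in rd6. The groups overlapped, with 2 rd6 libraries above the highest WT library, and WT 4 was the lowest. The log2 fold change of 0.25 was not called, and its 95% interval of -0.11 to 0.61 leaves room for no change and for a rise (limma, adjusted p = 0.302).

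RBP4, the retinol carrier that binds transthyretin, had few transcripts in these samples. Rbp4 measured 32.9, 53.6 and 78.8 in WT (lowest, median, highest) and 23.3, 27.3 and 39.8 in rd6, and it fell by 0.81 on the log2 scale (limma, adjusted p = 0.0187), a call lost without the 4 libraries with many keratin reads. The log2 ratio of Ttr to Rbp4 ran from 13.13 to 14.46 in WT and from 14.57 to 14.92 in rd6. All rd6 libraries lay above all WT libraries, and the difference of 1.06 had a two-sided p of 0.00216 (adjusted over 2 ratios 0.00433), the smallest that the exact permutation test can give with 6 against 6 samples. Because Rbp4 was itself called lower, this ratio gives no information on Ttr alone.

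Abca1, whose protein starts cholesterol efflux (chr4:53030787-53159895, minus strand), measured 3994, 4316 and 4955 in WT (lowest, median, highest) and 2340, 2927 and 3033 in rd6. The highest rd6 library lay well under the lowest WT library. Abca1 fell from 4375 ± 376 to 2825 ± 261, 1.55-fold lower, with a log2 fold change of -0.63 (SE 0.07; limma, adjusted p = 5.8e-05). It had the smallest spread of the 9 genes in WT, with a coefficient of variation of 8.6%.

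Abcg1, the partner transporter for formed particles (chr17:31057675-31117988, plus strand), measured 97.6, 146 and 480 in WT (lowest, median, highest) and 164, 247 and 419 in rd6. The WT value of 480 was that of WT 4, and the next WT library, at 155, lay under all rd6 libraries. With all libraries the log2 fold change was 0.65 (95% interval -0.14 to 1.45) and was not called (limma, adjusted p = 0.228). Without WT 4 it was 0.97 and was called (limma, adjusted p = 0.0143). Without the 4 libraries with many keratin reads it was 0.48 and was not called (limma, adjusted p = 0.11). The call for Abcg1 therefore depends on these libraries. An rRNA gene, Gm25447, lies within Abcg1 on the same strand, so a share of its reads is uncertain.

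Pltp encodes the phospholipid transfer protein (chr2:164839518-164857711, minus strand). It measured 39220, 60154 and 66864 in WT (lowest, median, highest) and 34507, 37175 and 54325 in rd6. The groups overlapped through WT 4, the lowest WT library, and rd6 6, the highest rd6 library, while the other 5 rd6 libraries, at 39404 or less, lay under the other 5 WT libraries. Pltp fell from 56862 ± 10050 to 39700 ± 7414, 1.43-fold lower, with a log2 fold change of -0.52 (SE 0.14; limma, adjusted p = 0.0198). The call held in each omission of a single library. Pltp overlaps Ctsa on the other strand, and the read counting is given only as run with standard parameters, with its strand setting not spelled out, so a share of its reads is uncertain.

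Levels of different genes can be compared only per length, and normalized counts per kilobase of exon were used for this. In WT the order of mean levels was Ttr (593424), Apoe (96135), Clu (59241), Pltp (22194), Apod (728), Abca1 (422), Apoc1 (66.5), Abcg1 (25.6) and Apoc4 (0.07). The first 4 did not overlap with one another in any library, whereas Apod overlapped with Abca1 and Apoc1 with Abcg1. In rd6 the first 4 kept their order and again did not overlap, and then came Apoc1 (285), Abca1 (273), Apod (185), Abcg1 (36.2) and Apoc4 (13.7). Of these, Apoc1, Abca1 and Apod overlapped in rd6.

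Cells other than RPE were followed through marker lists. Of 17 microglia and macrophage markers, 14 were called higher and 0 lower, with a median log2 fold change of 2.72 (P2ry13, one of the 14, passed the filter only through rd6). Their sum was 14632 to 20899 in WT and 25273 to 39274 in rd6, and most of it in WT came from Csf1r (mean 17256 in WT and 18740 in rd6, not called). Without Csf1r, a step chosen after seeing the values, the sum of the other 16 was 1121 to 2616 in WT and 7737 to 18422 in rd6, with no overlap, and WT 4 stood at 1711. No marker of the list was at 0 in all WT libraries. Microglia and macrophages are known to express Apoe, Apoc1, Abca1 and Abcg1, and the part of these cells in the values of the 4 genes was not tested.

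Of the ocular surface keratins, none of 4 was called by limma, edgeR or DESeq2 or had an unadjusted p below 0.05 in limma, and their part in the values of Apoc1 and Abcg1 was not tested. The 4 libraries with the most keratin reads were also the 4 highest in Abcg1. Apoc1 was highest in WT 4 among WT libraries and in rd6 5 among rd6 libraries, which also had the highest keratin sum of their genotype. Its values were 219, 262 and 120 in rd6 4, rd6 6 and rd6 3, with keratin sums of 440, 620 and 2694. They were 172 and 191 in rd6 1 and rd6 2, with keratin sums of 47145 and 13294. The counts of the other lists stand beside 11.4% of all genes called higher and 11.6% lower, and a single call in a short list was not read as a result. Among these lists, 7 of 10 endothelial markers were called higher and 0 lower (1 of 10 higher without the 4 libraries with many keratin reads). Lower calls were made for 4 of 13 rod markers (12 without rd6 5, whose sum of 66808 was the highest in rd6, 7 without WT 1 and 8 without WT 5), 1 of 5 Müller glia and astrocyte markers, 1 of 8 fibroblast markers (3 without rd6 1, 2 without rd6 2, and 1 called higher without WT 3 or WT 4), 2 of 5 melanocyte markers (with 1 called higher without WT 4) and 2 of 4 tested lens markers. Among 7 Schwann cell markers 4 were called lower and 1 higher. Sox10, called lower, is on both the Schwann cell and the melanocyte list and counts in both. Among 6 mural markers limma called 0 (2 higher and 2 lower at an unadjusted p below 0.05), edgeR 0 and DESeq2 1. Without WT 4 limma called 2 mural markers higher and 1 lower, without rd6 6 it called 1 higher, and without rd6 4 it called 1 lower. Without the 4 libraries with many keratin reads 9 rod markers and 2 fibroblast markers were called lower and 2 mural markers higher. Cryaa, a lens crystallin, had at most 3 reads in any library.

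**Figure D4:**
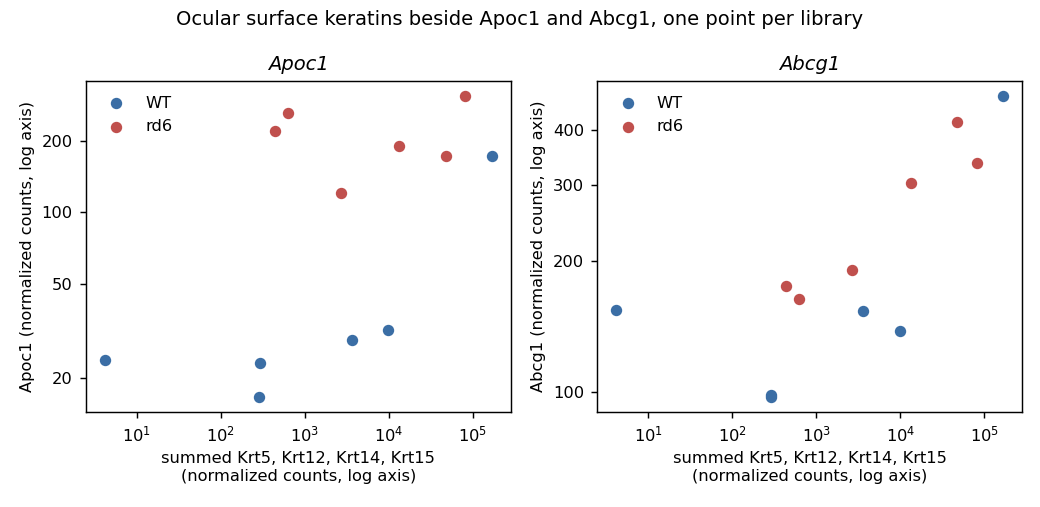
Normalized counts of Apoc1 (left) and Abcg1 (right) on the y axis against the summed normalized counts of the ocular surface keratins Krt5, Krt12, Krt14 and Krt15 on the x axis, both log axes, with 1 point for each of 6 WT (blue) and 6 rd6 (red) libraries. WT 4, at a keratin sum of 167663, lies at 171.9 for Apoc1 and 480 for Abcg1, far above the other WT points. All rd6 points lie above those other WT points in both panels.

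Other genes of the pathway were taken from fixed lists, and each count is given beside the 11.4% of all genes called higher and the 11.6% called lower. Genes beyond the 3 largest changes of a list were named after their values were seen. Of 9 tested genes among the other apolipoproteins, the apoB receptor and the apoB mRNA editing enzyme, 5 were called higher and 0 lower (median log2 fold change 0.93). They were Apol9b (1.10), Apobec1 (1.08), Apoa2 (0.99), Apoc3 (0.93) and Apol10b (0.83). Apobec1, the editing enzyme, measured 121 to 197 in WT and 233 to 540 in rd6 without overlap (limma, adjusted p = 0.00103), whereas Apoa2 and Apol9b were near the filter, with rd6 means of 16.0 and 27.1. Apoa2, with a WT mean of 7.71, passed it only through rd6, so its call is a description. The call for Apoa2 was lost without WT 6 or rd6 3, and that for Apol9b without any of WT 1, WT 2, WT 3, WT 6, rd6 1, rd6 2, rd6 4 or rd6 5. The count of 5 became 3 without WT 2 or rd6 1 and 2 without WT 6, and it fell to 1 without the 4 libraries with many keratin reads and to 2 where at least 10 was required in every library. No gene of this list or of the next was lower at an unadjusted p below 0.05 in limma, or was called lower by edgeR or DESeq2.

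Of 7 tested neighbours of Apoe on chromosome 7, 3 were called higher and 0 lower (median 0.24), and these were Bcl3 (1.31), Bcam (0.61) and Tomm40 (0.20). Bcl3, a regulator of NF-kappaB, was at 178.7 in its highest WT library against a WT median of 30.0, and among omissions of a single library its call was kept only without WT 4 or rd6 6. The call for Tomm40, which encodes the channel of the outer mitochondrial membrane, was kept only in the omissions of WT 5, rd6 1 or rd6 5. Bcam, for a laminin-binding adhesion protein, kept its call in all 12 omissions but lost it with the replicate number as a block (limma, adjusted p = 0.0907). The genotypes overlapped for all 3. The count of 3 became 1 without WT 1, WT 2, WT 3, WT 6, rd6 2, rd6 3 or rd6 4, and edgeR and DESeq2 each called 2.

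Among 18 lipoprotein receptors and adaptors, 2 were called higher and 6 lower (median 0.01). Lrp2, which encodes megalin, an endocytic receptor for apoE and for transthyretin among other ligands, fell from 8165 ± 1076 to 4762 ± 637 with no overlap (log2 fold change -0.78; limma, adjusted p = 0.000141). Vldlr, a receptor for apoE-bearing particles, fell by 0.34 on the log2 scale. Lrp4, Lrp1, Scarb1 and Sort1 made up the other lower calls, with log2 fold changes from -0.34 to -0.24. Stab1, for the scavenger receptor stabilin-1, rose by 0.64, and Mylip, for a ligase that marks LDL receptors for breakdown, rose by 0.33. The 6 lower calls became 3 without WT 1, WT 3, WT 6, rd6 1 or rd6 3, and the call for Stab1 was lost without the 4 libraries with many keratin reads.

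Of 13 genes for lipoprotein assembly and remodelling, 2 were called higher and 2 lower (median -0.14). DESeq2 called 2 higher and 4 lower, and 3 were higher and 6 lower at an unadjusted p below 0.05 in limma. Angptl4, which encodes an inhibitor of lipoprotein lipase, fell from 2221 ± 986 to 618 ± 372 (log2 fold change -1.87; limma, adjusted p = 0.00325). Lpl, for lipoprotein lipase itself, rose from 484 ± 245 to 1084 ± 467 (log2 fold change 1.23; limma, adjusted p = 0.0265), a call lost without WT 1, WT 5, rd6 3 or rd6 5. Mttp, for the protein that loads lipid onto apoB, fell by 0.43 on the log2 scale, and Pon1 rose by 0.36. The 2 higher calls became 1 without WT 1, WT 2, WT 5, rd6 2, rd6 3 or rd6 5, and the 2 lower calls became 5 without WT 4. Without the 4 libraries with many keratin reads 1 lower call was left, and the call for Angptl4 was lost.

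Among 11 other ABCA and ABCG transporters, 1 was called higher and 3 lower (median 0.04). Abca5 fell by 0.54 on the log2 scale with no overlap (limma, adjusted p = 0.00185). Abca4, the retinoid flippase, had a log2 fold change of -0.21 and kept its call only in the omissions of WT 4 or rd6 6. Abca2, at -0.19, was the other lower call. Abcg2 had a log2 fold change of 0.74, and its call was lost without any of WT 1, WT 2, WT 6, rd6 1, rd6 2, rd6 3 or rd6 6. The 3 lower calls became 1 without WT 1, WT 2, WT 6, rd6 1, rd6 2, rd6 3 or rd6 5 and 5 without rd6 6, and without WT 4 there were 2 higher calls. Without the 4 libraries with many keratin reads there were 0 higher calls and 1 lower call.

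Abca1, Abcg1, Apoe, Pltp and Apoc1 are known targets of the liver X receptors (LXR), which pair with retinoid X receptors. Of 15 other receptors, cofactors and targets of this pathway, 2 were called higher and 5 lower (median -0.11). Srebf1, for the sterol regulatory factor that LXR induces, fell from 6898 ± 1285 to 4125 ± 715 without overlap (log2 fold change -0.74; limma, adjusted p = 0.00185). Scd2 and Fasn, for fatty acid desaturation and synthesis, fell by 0.41 and 0.35 on the log2 scale, Lpcat3 by 0.31 and Ncor1 by 0.17. Rxrg rose by 0.68, and Mylip, which both lists hold, was the other higher call, and without WT 4 there were 4 higher calls. Without the 4 libraries with many keratin reads 2 lower calls were left, and the call for Scd2 was lost. Within this group the 5 genes first named did not move in 1 direction, as Apoe and Apoc1 rose, Abca1 and Pltp fell, and Abcg1 was not called.

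Of 19 genes for cholesterol handling inside cells and for oxysterol enzymes, 2 were called higher and 3 lower (median 0.01). Cyp27a1, for the sterol 27-hydroxylase that makes an oxysterol, fell from 1474 ± 238 to 754 ± 172 without overlap (log2 fold change -0.98; limma, adjusted p = 0.000433). Soat1, for the enzyme that esterifies cholesterol, rose from 5517 ± 533 to 8145 ± 571 without overlap (log2 fold change 0.56; limma, adjusted p = 9.4e-05). Nceh1, for a hydrolase of cholesteryl esters, fell by 0.44 on the log2 scale. Gramd1b, for a carrier of cholesterol from the plasma membrane to the endoplasmic reticulum, fell by 0.50, and Cyp7b1 rose by 0.36.

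Of 12 tested partners of transthyretin in retinol and thyroid hormone transport, 0 were called higher and 6 lower (median -0.46). Besides Rbp4 they included Slco1c1 (-0.77) and Slco1a4 (-0.52), for organic anion transporters that take up thyroxine, and Thrb (-0.33), for a thyroid hormone receptor. Slco1a4 ran from 12920 to 17367 in WT and from 9633 to 12390 in rd6 without overlap (limma, adjusted p = 0.00051). Slco1c1 fell from 9769 ± 1379 to 5740 ± 1072 (limma, adjusted p = 0.000583). None of the 12 was higher at an unadjusted p below 0.05 in limma or was called higher by edgeR or DESeq2, but 1 was called higher by limma without WT 4. Stra6, for the RBP4 receptor, was not called (log2 fold change -0.36; limma, adjusted p = 0.0618).

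**Figure D5:**
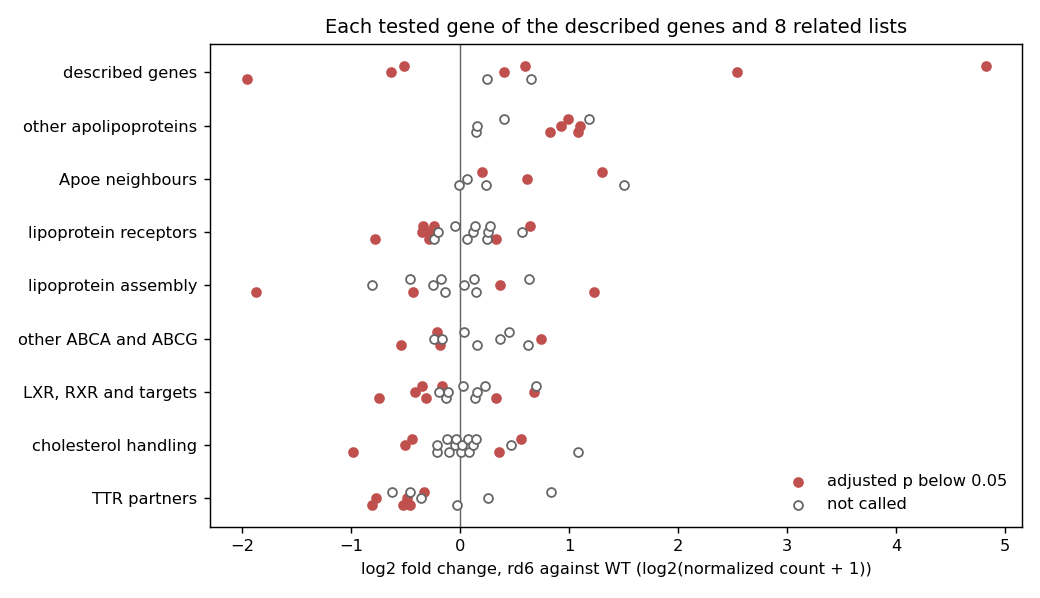
Log2 fold change of rd6 against WT (x axis) for each tested gene of the 9 described genes and of 8 related lists, with red points for genes called at an adjusted p below 0.05 in limma and open points for genes not called. The called points of the other apolipoproteins and of the neighbours of Apoe all lie right of 0, those of the transthyretin partners all lie left of it, and the other lists have called genes on both sides.

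To see which genes varied like these between libraries of one genotype, log2 values were centred on the genotype means and correlated over the 12 libraries, among 12874 genes with a mean of at least 100. The likeness is descriptive, since genes of one library share its depth, tissue makeup and RNA quality. Apoe was most like Vdac2, Fahd2a and Acp1 (r = 0.97, 0.97 and 0.96). Ttr was most like Tmbim6, Sod1 and Mtch1, Clu like Calm3, Nucb1 and Cpxm2, and Pltp like Slc22a18 and Pla2g7, with r from 0.97 to 0.99. Apoc1 was most like Fabp5, for a fatty acid-binding protein of epidermis, Gm6166 and Mcm5 (r = 0.98, 0.98 and 0.97). Abcg1 was most like Acot9, Isg15 and Mreg (r = 0.98, 0.98 and 0.97). WT 4 stood apart from the other WT libraries in Apoc1 (171.9 against 32.0 or less) and in Abcg1 (480 against 155 or less). The r values of Apoc1 and Abcg1 therefore rest largely on this 1 library. For Apod the likeness was 0.96 for Sh2b3, 0.96 for Rflnb and 0.94 for Flt1, an endothelial receptor on the marker list. Abca1 had the weakest likeness, with r of 0.88 for Bod1l, 0.87 for Zfp704 and 0.84 for Ppp1r3b, and Apoc4 was most like Cradd (0.95), Cmss1 (0.93) and Mvb12a (0.92), values that rest on the 6 rd6 libraries, at 14 to 56 reads.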

How the data were processed

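RPE of 6 WT and 6 rd6 mice was profiled by stranded total RNA sequencing. Per the paper's methods, the authors aligned reads to mm10, counted them with Rsubread at standard parameters and normalized them with DESeq2; FastQC and bcl2fastq are named in the submitters' processing notes, and versions are not given in the sources used here. The deposited values are a signal per gene and library, counts divided by a size factor, and in all 12 libraries 100% of them were whole multiples, within 0.01, of the value of 1 read. The authors also deposited their own log2 fold changes, a test score, p-values and adjusted p-values, which were not used. The table had 28596 entries, of which 5 repeated ones were dropped. No pair among 66 pairs of libraries agreed within sampling noise (lowest chi-square per gene 9.45). Floors cover counting error only, and p-values measure the spread between samples.

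Genes with a mean of at least 10 were tested with limma 3.58.1 (R 4.3.3; lmFit, eBayes with trend) on log2(value + 1), with Benjamini-Hochberg adjustment over all 17768 genes. Fold changes are differences of mean log2(value + 1), which shrink changes of genes near 0 and can exceed the ratio of mean counts where 1 library is high. The 2 ratios were compared with exact permutation tests. Other settings tried were a pseudocount of 0.1 or 10, testing of unfiltered genes or of those reaching 10 in each library, TMM rescaling, log2 CPM, edgeR 4.0.16, DESeq2 1.42.0 on recovered reads, the replicate number as a block, and omission of each library. The fit was checked on simulated data.

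The genes and lists were chosen with earlier results of these data known. Named are all matched genes of interest, the 3 largest called changes of each list, the most abundant marker of each list, and for each gene the 3 genes of highest likeness. Some genes that these rules select are not reported here. Coordinates are from GENCODE M21 (GRCm38), upstream windows from RefSeq.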

Additional observations from a re-analysis of the deposited data

Results flagged for a closer look

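In 6 libraries of a genotype, a highest or lowest value was set apart where its gap to the nearest other value took up more of the range than Dixon's 95% limit allows. This held for 5 of 22 sets of values, where chance gives about 1 in 20 for independent sets. The sets are not independent, since the ratio below restates the Apoc1 value, and a set with reads in a single library passes by construction. Apoc1 in WT 4 was 171.9 normalized counts, against 32.0 or less in the other WT libraries. Abcg1 in WT 4 was 479.77, against 155 or less. The log2 ratio of Apoc1 to Apoe in WT 4 was -9.98, against -12.55 or less. These 3 values come from the library with the highest keratin sum of all 12, 167663, and the part of keratin-expressing tissue in them was not tested. Pltp in rd6 6 was 54325, against 39404 or less in the other rd6 libraries. Apoc4 in WT 5 was 1.1071, which is 1 read, against 0 in the other WT libraries.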

How the results depend on the processing

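Each of the 9 genes kept its direction under every alternative that gave it a value. Apoc4 has none where at least 10 was required in every library. With the replicate number as a block, Apoe had the same log2 fold change of 0.40 but was not called (limma, adjusted p = 0.0965), and the ratio of Apoc1 to Apoe, at 2.14, had a two-sided exact p of 0.0625. The block changed no other call among the 9 genes and took the count over all genes to 1453 higher and 1489 lower. Among the list genes, calls lost with the block included those of Apol9b, Apoa2, Bcl3, Bcam, Tomm40, Stab1, Lpl, Abcg2, Abca4, Rxrg, Scd2 and Rbp4. Their adjusted p-values in limma were then 0.0507 to 0.117. The numbers do not pair the samples: deviations of same-numbered libraries correlated from -0.74 to 0.31, and none matched its own number best. Omission of single libraries gave log2 fold changes of 0.36 to 0.45 for Apoe, with the call lost 5 times, and of 0.50 to 0.97 for Abcg1, with a call without WT 4. The causes were not tested. Over all alternatives, 3 to 5 of the 9 genes were called higher, with Apoc4 among them wherever it had a value, and 3 lower. edgeR with TMM, on recovered reads, called 1981 genes higher and 2085 lower, log2 CPM 2750 and 1557, and edgeR with upper-quartile normalization 2374 and 1583, against 2024 and 2062. edgeR with TMM called Apoe, Apoc1, Apoc4 and Clu (adjusted p = 0.0102, 0.0153, 1.4e-05 and 0.000738) and gave 0.117 for Ttr, and DESeq2 gave 0.072 for Ttr. The log2 fold change of Apoc4 ran from 2.04 to 7.67 with the scale and pseudocount. Among other named values, counts of list calls and gene calls, 1324 outcomes stayed the same, 84 moved and 78 lost a call. At this depth Apoc4 in WT lay under the floor of 3 reads.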
